A study of Mus musculus with 6 samples.

Results

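Small leucine-rich proteoglycans are secreted proteins of the connective tissue matrix, and 10 genes of the family were followed here in the mouse corneal limbus: Kera, Lum, Dcn, Bgn, Fmod, Ogn, Prelp, Omd, Aspn and Epyc. They were chosen by name, and each had its row among the 39089 genes of the deposited expression table. The limbus is the rim between cornea and conjunctiva. All 6 samples came from wild-type mice and were profiled by sequencing of poly(A)-selected RNA. In 3 samples the mice had received L-733,060, which blocks NK1, the receptor of the neuropeptide substance P, injected under the conjunctiva on day 0 and day 3. The 3 control samples came from mice injected with sterile water by the same route, on days that the labels do not give, and the limbus was collected after a week. The labels give neither the age of the mice nor the number of animals behind a sample. They also do not tell whether replicates are separate mice, so every p-value reflects the spread among the sequenced samples alone, and that spread could be technical. Total counts ran from 18708288 to 23541791 per sample.

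The core protein of these molecules is built of leucine-rich repeats and binds collagen fibrils. In the cornea it helps to set the width and spacing of the fibrils, on which transparency depends. The core carries sulfated sugar chains: keratan sulfate on lumican and keratocan, and chondroitin or dermatan sulfate on decorin and biglycan. In the corneal stroma they are made by keratocytes, the resident fibroblast-like cells. Several members also bind growth factors such as TGF-β.

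Most of the proteoglycan genes were lower in the limbus given L-733,060. Of the 10 genes, 9 had enough counts to be tested, and 7 of them fell: Kera 6.88-fold, Dcn 4.06-fold, Prelp 2.85-fold, Omd 2.71-fold, Fmod 2.61-fold, Lum 2.39-fold and Ogn 2.26-fold. Aspn rose 3.61-fold and Bgn 1.497-fold, and Epyc was too scarce to test. All 9 passed an adjusted p of 0.05 (edgeR's quasi-likelihood test, Benjamini-Hochberg), where 41.3% of the 15712 tested genes passed, 21.4% higher and 19.9% lower. The 2 groups did not overlap for any of the 9, against 52% of all tested genes, 26.6% with the L-733,060 samples higher and 25.4% with them lower. The median log2 fold change of the 9 genes was -1.38, beside a median of -0.0016 for all tested genes. Because whole tissue was measured, fewer cells of a type and less RNA per cell cannot be told apart.

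**Figure D1:**
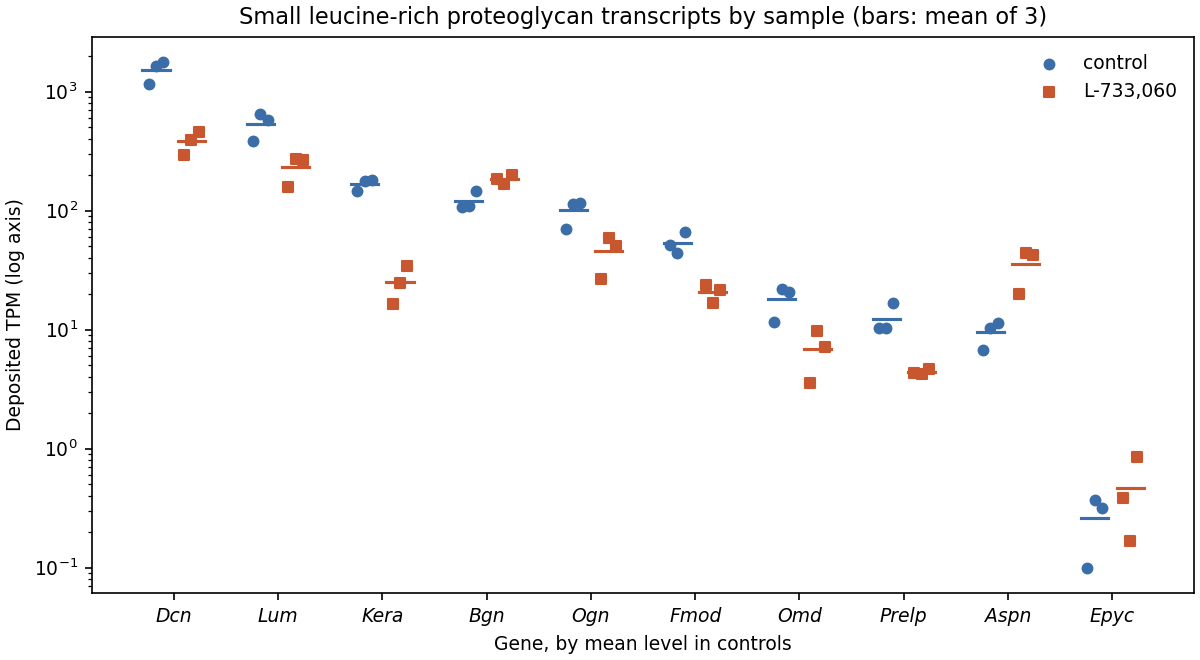
Level of each proteoglycan gene in each sample, in TPM on a log axis, with controls and L-733,060 samples as separate points and a line at each group mean. The groups are apart for every gene except Epyc, with Aspn and Bgn higher after L-733,060 and the other 7 lower.

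Levels are given per transcript length, as TPM. Lum, Kera, Fmod, Prelp and Omd form a class of the family in which keratan sulfate is the usual sugar chain, and all 5 fell. Keratocan, encoded by Kera (chromosome 10, 97606962 to 97613688, plus strand, mm10), is a keratan sulfate proteoglycan found mainly in the cornea, and its loss in humans flattens the cornea. Its level was 146, 179 and 180.5 TPM in controls 1 to 3 and 16.4, 24.5 and 34.2 TPM in L-733,060 samples 1 to 3. The highest treated sample lay far below the lowest control, and the group means were 168 ± 19.2 and 25.05 ± 8.92 TPM (SD, n = 3 each). The fitted log2 fold change was -2.78 (SE 0.21, edgeR adjusted p = 1.55e-06). By TPM, Kera stood at rank 742 of the table in controls and at rank 4203 after L-733,060.

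Lumican, the other main keratan sulfate proteoglycan of the corneal stroma, is encoded by Lum (chromosome 10, 97565501 to 97572703, plus strand), and mice that lack it have cloudy corneas. Lum measured 386, 654 and 576 TPM in the controls and 158, 270.4 and 265 TPM in the treated samples. Sample 1 was the lowest of each group, and the lowest control still lay above the highest treated sample. The means were 539 ± 138 and 231 ± 63.4 TPM (SD, n = 3 each), with a log2 fold change of -1.25 (SE 0.23, edgeR adjusted p = 0.00098). The Kera to Lum ratio was 0.379, 0.273 and 0.313 in controls and 0.104, 0.0905 and 0.129 after L-733,060, with no overlap.

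Fibromodulin, encoded by Fmod (chromosome 1, 134037254 to 134048280, plus strand), binds collagen fibrils at a site it shares with lumican. Fmod measured 51.4, 43.8 and 65.7 TPM in controls and 23.8, 16.6 and 21.6 TPM after L-733,060. Every control was above every treated sample, and the log2 fold change was -1.38 (SE 0.17, edgeR adjusted p = 6.76e-05). Prelp (chromosome 1, 133910304 to 133930102, minus strand) encodes a protein that binds both collagen and heparan sulfate. It measured 10.2, 10.3 and 16.6 TPM in controls and 4.32, 4.22 and 4.63 TPM after L-733,060. Control 3 stood above the other controls while the treated samples lay close together, and the log2 fold change was -1.51 (SE 0.19, edgeR adjusted p = 8.76e-05).

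Osteomodulin, encoded by Omd (chromosome 13, 49582462 to 49592612, plus strand), is a keratan sulfate proteoglycan known from bone and dentin. Omd measured 11.6, 21.8 and 20.8 TPM in controls and 3.56, 9.76 and 7.20 TPM after L-733,060. The groups were separated by a small margin, between control 1 and treated sample 2, and the log2 fold change was -1.44 (SE 0.33, edgeR adjusted p = 0.00406).

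Dcn, Bgn and Aspn form the class related to decorin, and here the directions were mixed. Decorin, encoded by Dcn (chromosome 10, 97479500 to 97518163, plus strand), carries a chondroitin or dermatan sulfate chain, limits the lateral growth of collagen fibrils and binds TGF-β. It was the most abundant of the 10 genes, with 1149.9, 1628 and 1772 TPM in controls and 295, 394 and 454 TPM after L-733,060. All 3 controls exceeded all 3 treated samples, and Dcn went from rank 103 to rank 328 of the table. The means were 1516 ± 325 and 381 ± 79.8 TPM (SD, n = 3 each), with a log2 fold change of -2.02 (SE 0.19, edgeR adjusted p = 8.75e-06).

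Biglycan, the closest relative of decorin, is encoded by Bgn (chromosome X, 73483601 to 73495936, plus strand) and in soluble form acts on Toll-like receptors. Bgn measured 107, 109 and 147 TPM in controls and 183, 167 and 197 TPM after L-733,060. Each treated sample lay above each control, and the log2 fold change was 0.58 (SE 0.14, edgeR adjusted p = 0.00543). Asporin, encoded by Aspn (chromosome 13, 49544443 to 49567565, plus strand), carries no sugar chain of this kind, binds collagen and blocks TGF-β from its receptor. Aspn measured 6.80, 10.4 and 11.4 TPM in controls and 19.7, 44.0 and 41.9 TPM after L-733,060. Treated sample 1 was the lowest of its group and still above the highest control, and the log2 fold change was 1.85 (SE 0.27, edgeR adjusted p = 0.000248).

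The third class holds Ogn and Epyc. Osteoglycin or mimecan, encoded by Ogn (chromosome 13, 49608015 to 49624501, plus strand), is a keratan sulfate proteoglycan in the cornea. Ogn measured 70.3, 114 and 117 TPM in controls and 26.8, 59.1 and 50.6 TPM after L-733,060. Control 1 stood nearest to the treated samples, and the log2 fold change was -1.17 (SE 0.26, edgeR adjusted p = 0.00366). Epiphycan, encoded by Epyc (chromosome 10, 97644068 to 97681908, plus strand), belongs to growth plate cartilage. Epyc had 2, 8 and 7 counts in controls and 8, 3 and 17 counts after L-733,060, so the groups overlapped. Without the low-count filter its log2 fold change was 0.76 (edgeR adjusted p = 0.432), and a difference was not detectable at this depth.

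**Figure D2:**
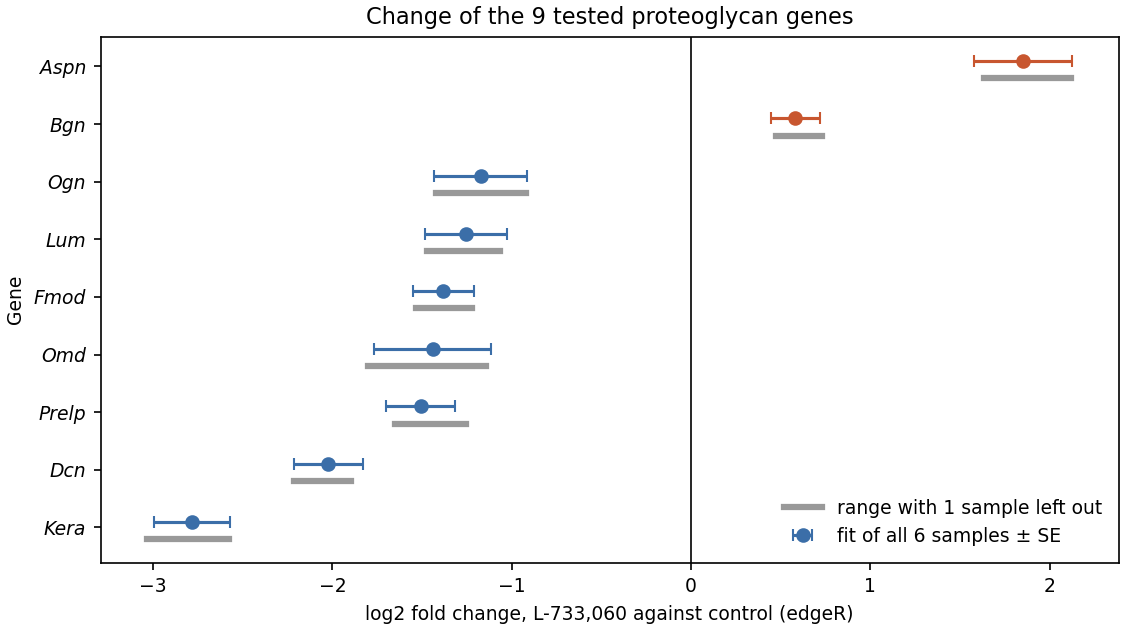
Fitted log2 fold change, L-733,060 against control, of the 9 tested proteoglycan genes, as points with bars of 1 standard error, and below each a grey bar for the range of the fits that leave out 1 sample. Bgn and Aspn lie above 0 and the other 7 below, their grey bars included.

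Control 1 had the lowest level of its group for 9 of the 10 genes. The same sample had the lowest stromal fibroblast marker sum of the controls, 548 TPM, and the highest corneal epithelial one, 78315 TPM. Their part in these levels was not tested. Without control 1, the 7 genes stayed lower and the 2 stayed higher at the same threshold. Leaving out each sample in turn gave a log2 fold change of -3.04 to -2.58 for Kera, -2.21 to -1.90 for Dcn, 0.48 to 0.73 for Bgn and 1.64 to 2.12 for Aspn.

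The family's summed level was lower after L-733,060 and its make-up differed. The 10 genes together amounted to 1939, 2769 and 2907 TPM in controls and 732, 989.6 and 1077 TPM after L-733,060. Dcn made up 59.7% ± 1.13 of that sum in controls and 40.8% ± 1.22 after L-733,060 (SD, n = 3 each). Bgn made up 4.83% ± 0.824 and 20.1% ± 4.33, and Aspn 0.372% ± 0.0206 and 3.68% ± 0.894. Kera went from 6.73% ± 0.710 to 2.63% ± 0.487. The shares of Fmod, Omd and Prelp moved by less than their spread, with Fmod at 2.16% ± 0.541 and 2.31% ± 0.833.

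**Figure D3:**
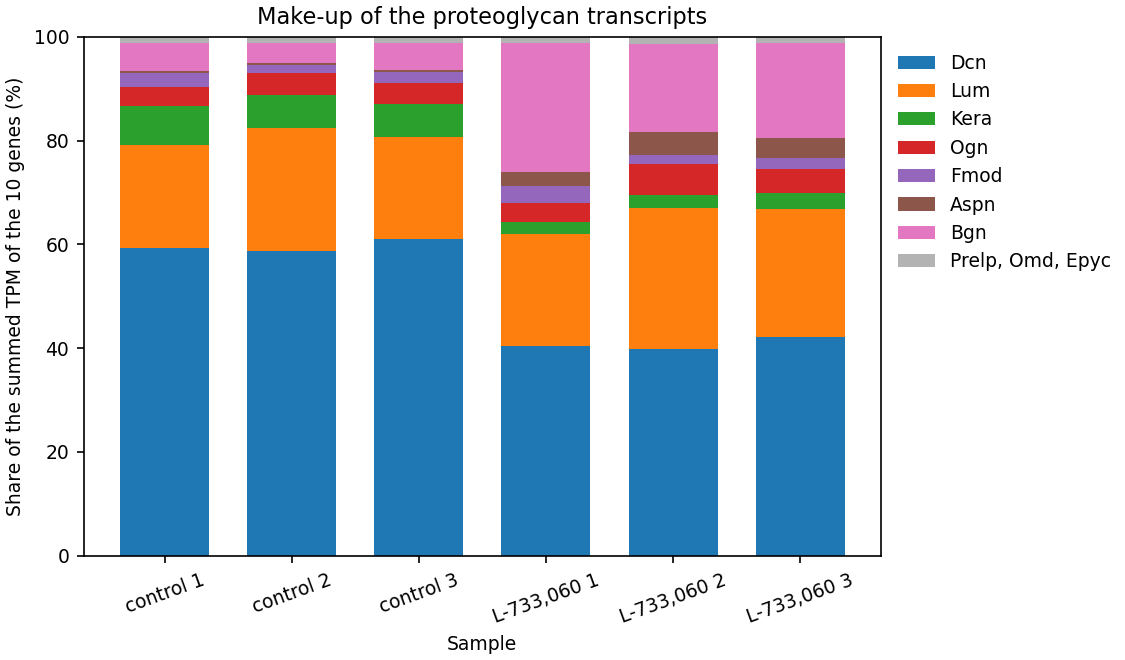
Share of each gene in the summed TPM of the 10 proteoglycan genes, in percent, as 1 stacked bar per sample. Dcn fills 58.8 to 60.9% of a control bar and 39.8 to 42.1% of an L-733,060 bar, where Bgn takes 16.9 to 25.03%.

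Ratios within a sample show the same contrasts without regard to library scaling. Of the 36 pairs among the 9 tested genes, 24 had ratios that did not overlap between the groups, beside 54.6% of all pairs of the 15533 tested genes with TPM above 0 in every sample. All 14 pairs of a gene that rose and a gene that fell were among them, which their opposite directions fix, and so were 10 of the other 22 pairs. With 3 samples against 3 the exact two-sided permutation test cannot go below p = 0.1, which these 24 reached (0.15 after adjustment over the 36 pairs), so no pair can pass on its own. The Dcn to Bgn ratio was 10.7, 14.99 and 12.1 in controls and 1.61, 2.35 and 2.30 after L-733,060. Ogn over Aspn was 10.3, 10.9 and 10.3 in controls and 1.36, 1.34 and 1.21 after it. The ratio of Lum to Ogn overlapped, with 5.48, 5.75 and 4.94 in controls and 5.90, 4.58 and 5.24 in treated samples, and so did that of Fmod to Prelp.

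The genes sit in 3 genomic clusters and at 1 single site. Dcn, Lum, Kera and Epyc lie in that order on the plus strand of chromosome 10, within 203 kb. The 3 that could be tested there fell. Btg1, the nearest protein-coding gene on the Dcn side, rose by a log2 fold change of 0.69 (edgeR adjusted p = 0.000468). It is not close: Btg1 ends at 96622809 and Dcn starts at 97479609 in GENCODE, a gap longer than the cluster itself. Ccer1, the nearest on the Epyc side, had 0 counts in both groups. Prelp and Fmod lie on opposite strands of chromosome 1, 138 kb from end to end, and both fell. Their neighbour Btg2 had a log2 fold change of 0.12 (edgeR adjusted p = 0.582). Optc, the family member on the other side, was not tested, with 129 counts in all controls together and 17 in all treated samples, and control 3 held most of these reads with 4.79 CPM.

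On chromosome 13, Aspn, Omd and Ogn lie on the plus strand within 80.1 kb and went in opposite directions. Aspn, the first of them, rose, and Omd and Ogn fell. Ecm2, the relative just before Aspn, fell with a log2 fold change of -1.67 (SE 0.24, edgeR adjusted p = 0.000222), and Nol8, just after Ogn, rose by 0.61 on the log2 scale (edgeR adjusted p = 0.00328). Cenpp, a centromere protein gene on the minus strand, spans all 3 and measured 3.63 ± 0.396 CPM in controls and 7.15 ± 0.699 CPM after L-733,060 (SD, n = 3 each). The sources used here do not give the strand setting of the counting, so reads from Cenpp and from these genes cannot be told apart where their exons overlap.

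The 250 bases before the RefSeq start (GRCm38.p6) are shown for these 3 neighbours and for Bgn, the other gene that rose. Capitals mark a TATAAA or a GGGCGG found on either strand.
Aspn: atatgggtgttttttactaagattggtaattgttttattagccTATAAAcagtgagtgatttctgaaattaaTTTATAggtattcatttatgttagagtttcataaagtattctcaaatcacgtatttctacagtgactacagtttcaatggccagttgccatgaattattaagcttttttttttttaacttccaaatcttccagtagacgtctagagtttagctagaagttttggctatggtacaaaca
Omd: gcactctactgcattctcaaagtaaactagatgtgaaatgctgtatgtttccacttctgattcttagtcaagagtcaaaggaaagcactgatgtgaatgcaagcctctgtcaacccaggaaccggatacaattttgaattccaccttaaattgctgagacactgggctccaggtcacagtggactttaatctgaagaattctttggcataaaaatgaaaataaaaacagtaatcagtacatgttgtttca
Ogn: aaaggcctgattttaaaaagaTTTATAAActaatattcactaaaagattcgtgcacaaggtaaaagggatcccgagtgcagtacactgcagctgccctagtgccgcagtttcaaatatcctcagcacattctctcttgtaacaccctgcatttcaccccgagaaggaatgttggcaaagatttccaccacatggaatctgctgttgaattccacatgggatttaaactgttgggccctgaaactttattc
Bgn: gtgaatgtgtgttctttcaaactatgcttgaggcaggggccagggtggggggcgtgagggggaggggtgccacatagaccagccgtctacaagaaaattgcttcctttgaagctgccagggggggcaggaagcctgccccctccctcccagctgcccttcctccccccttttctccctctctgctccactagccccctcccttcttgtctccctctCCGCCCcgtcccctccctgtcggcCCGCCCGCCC
These windows are chr13:49544193-49544442 for Aspn, chr13:49582212-49582461 for Omd, chr13:49607765-49608014 for Ogn and chrX:73483351-73483600 for Bgn, all on the plus strand. TATAAA occurs in 12.4% of 32851 windows of this length, and the windows of Aspn and Ogn each hold 2 matches, which overlap in Ogn. GGGCGG occurs in 32.7% of windows, and Bgn alone among the 8 members with a window holds it, 3 times. These matches begin 34, 10 and 6 bases before the start, and the last 2 overlap. The AP-1 motif TGANTCA, in 6.75% of windows, was in none of the members' windows. Dcn and Lum had no window. That of Kera lay wholly in annotated exons and that of Prelp within the deposited bounds of its gene. The motif counts may therefore miss the promoters of these 4 genes. Bgn, with 64.4% G and C, lies above the median window (52.4%), and Aspn with 30.0%, Omd with 38.4% and Ogn with 42.0% lie below it. TATAAA was thus found before both a gene that rose and a gene that fell.

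**Figure D4:**
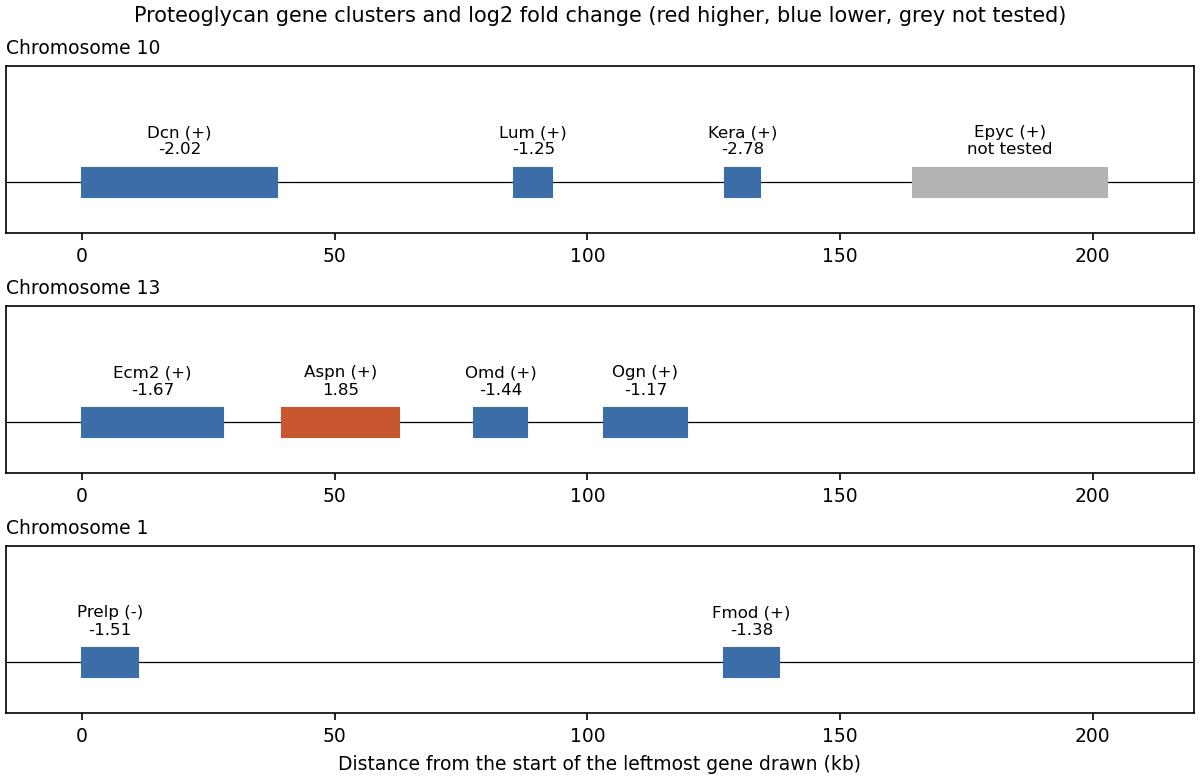
Map of the proteoglycan genes and Ecm2 on chromosomes 10, 13 and 1, as boxes to scale in kb from the leftmost gene of each, red for higher and blue for lower after L-733,060 and grey for untested, with the strand and the log2 fold change above each box. On chromosome 13 Aspn, at 1.85, lies between Ecm2 at -1.67 and Omd at -1.44.

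Other leucine-rich proteoglycan genes moved in both directions. Of 9 such genes, 6 were tested: 3 fell, 1 rose and 2 did not pass, and their median log2 fold change was -0.95. Beside Ecm2, Podn (podocan) fell by 1.26 on the log2 scale (edgeR adjusted p = 0.0086; 0.0511 without control 1) and Nyx (nyctalopin) by 1.64 (adjusted p = 0.0358, with 0.107 in DESeq2). Nyx did not pass when control 1, 2 or 3 or L-733,060 2 or 3 was left out (adjusted p 0.0736 to 0.118), and its log2 fold change without L-733,060 1 was -2.28. Without control 1, only 1 of the list fell. Podnl1, a podocan relative, rose from 0.177 ± 0.108 to 1.61 ± 0.478 CPM (SD, n = 3 each), a log2 fold change of 3.12 (SE 0.47, edgeR adjusted p = 0.000278; 3.73 without control 3). It had only 12 counts in all controls together and passed the count filter through the treated samples, so the size of this rise is uncertain.

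Genes of the enzymes that build the sugar chains went in both directions. Beside the counts of this and every other list, 21.4% of all tested genes were higher and 19.9% lower. Of 12 keratan sulfate genes, 11 were tested, of which 4 rose and 3 fell, with a median log2 fold change of 0.31. Chst5, the sulfotransferase that sulfates corneal keratan sulfate in mice, fell from 33.5 ± 5.33 to 8.66 ± 3.14 CPM (SD, n = 3 each), a log2 fold change of -1.95 (SE 0.23, edgeR adjusted p = 5.02e-05). B4galt4, a galactosyltransferase, fell by 1.06 on the log2 scale (adjusted p = 0.0041), and Chst2, another sulfotransferase, rose by 2.12 (adjusted p = 0.000246). Fut8, a fucosyltransferase of N-glycans, rose by 0.96 (adjusted p = 0.000123).

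Of 22 chondroitin and dermatan sulfate genes, 20 were tested, of which 4 rose, 5 fell and 11 did not pass, with a median log2 fold change of 0.12. These counts lie near the shares of all tested genes, 21.4% higher and 19.9% lower. Dse, the epimerase that turns chondroitin into dermatan sulfate, rose from 3.17 to 19.0 CPM on average (log2 fold change 2.58, SE 0.17, edgeR adjusted p = 6.31e-07). Its relative Dsel rose by 1.01 (adjusted p = 0.000863) and the sulfotransferase gene Ust by 1.64 (adjusted p = 0.000723). Csgalnact1, which starts the chondroitin chain, fell by 1.99 on the log2 scale (edgeR adjusted p = 4.96e-05). Among 13 tested genes of sulfate and sugar supply, Papss2 and Papss1, which make the sulfate donor, fell by 1.45 and 0.58 on the log2 scale (edgeR adjusted p = 0.000322 and 0.00301). The other 11 did not pass. Among them, 2 had higher levels at an unadjusted p under 0.05, and DESeq2 called 1 gene of the list higher, as did edgeR without control 2, control 3 or L-733,060 3 or without the low-count filter. With upper-quartile scaling, and with the replicate number as a block, edgeR called 2 higher.

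Most of the collagens that these proteoglycans bind rose. Of 12 collagen genes, called fibril collagens here, 8 rose and 4 did not pass, with a median log2 fold change of 0.85. The 4 were Col12a1 at -0.36, Col6a1 at -0.46, Col6a2 at -0.65 and Col6a3 at -0.08 (edgeR adjusted p = 0.0887, 0.164, 0.0846 and 0.716). Col6a1, Col6a2 and Col6a3 encode type VI collagen, which is not a fibril-forming type. Col3a1, of type III collagen, rose from 82.4 ± 26.8 to 636 ± 80.6 CPM (SD, n = 3 each), a log2 fold change of 2.95 (SE 0.21, edgeR adjusted p = 1.08e-06). Col14a1, of a collagen on the fibril surface, rose by 1.80, Col11a1 by 1.98 and Col5a2 by 1.27 (edgeR adjusted p = 3.91e-06, 0.000174 and 2.85e-05). None fell in edgeR's test, though 2 were lower at an unadjusted p under 0.05. DESeq2 called 1 lower, and edgeR called 2 lower without L-733,060 3, 2 with the replicate number as a block and 3 without the low-count filter. Col1a1 and Col1a2, the chains of type I collagen, were picked after their values were seen and rose by 0.83 and 0.57 (adjusted p = 0.0165 and 0.0106). Neither passed without control 1 (adjusted p = 0.0825 and 0.0585), and Col1a1 also missed without control 2 (0.0675) and in limma on log2(TPM + 1) and on log2(TPM + 0.1) (0.0562 and 0.051). The summed TPM of the proteoglycans was 5.19, 7.65 and 6.28 times that of these 12 collagens in controls. It was 0.932, 1.62 and 1.12 times after L-733,060.

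**Figure D5:**
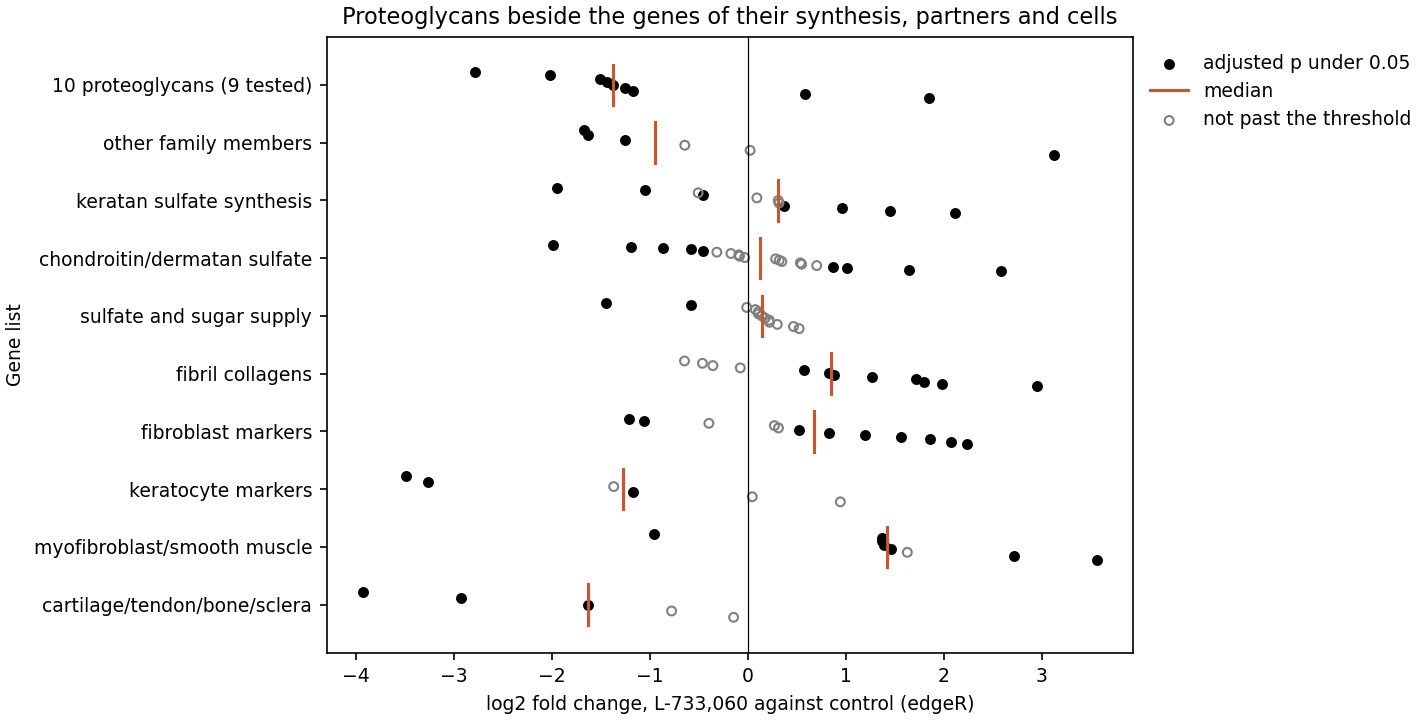
Log2 fold change, L-733,060 against control, of each tested gene in 10 lists, with filled points for adjusted p under 0.05 and a bar at each list's median. The 9 tested proteoglycans have a median of -1.38 and the fibril collagen list, which includes type VI genes, one of 0.85.

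Markers of cell types also differed between the groups. All 6 keratocyte markers were tested: 3 fell and 3 did not pass. Their summed TPM was 330.8 to 419 in controls and 93.0 to 133 after L-733,060. Aldh1a1, an aldehyde dehydrogenase, fell by 3.49 on the log2 scale, Angptl7 by 3.26 and the water channel gene Aqp1 by 1.17 (edgeR adjusted p = 1.35e-07, 2.13e-06 and 0.000454). Cd34 measured a log2 fold change of 0.04 (adjusted p = 0.86). Ptgds had one of -1.37 (adjusted p = 0.0626) and passed as lower without control 1 (0.0401), control 2 (0.0142) or L-733,060 3 (0.0295), with the replicate number as a block (0.0329) and without the low-count filter. Control 3 held most of its reads, and without it the log2 fold change was -0.11 and 1 other keratocyte marker was called higher. Of 12 general fibroblast markers 7 rose and 2 fell, with Fbln2 at 2.23 and Vim at 1.86 higher and Dpt at -1.21 (edgeR adjusted p = 2.89e-06, 8.20e-06 and 0.00013). Their summed TPM was 548 to 694 in controls and 816 to 1256 after L-733,060.

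Of 9 myofibroblast and smooth muscle markers, 8 were tested: 6 rose and 1 fell, and none fell without control 2 or without L-733,060 2. Acta2, smooth muscle actin, rose by 3.56 and Mcam by 2.72 (edgeR adjusted p = 1.23e-07 and 6.1e-07), and the summed TPM was 62.2 to 67.0 in controls and 233 to 306 after L-733,060. Of 12 markers of cartilage, tendon, bone and sclera, tissues where several of the proteoglycans are also made, 5 were tested and 3 of those fell, with Cilp at -3.93 and Tnmd at -1.63 (edgeR adjusted p = 5.5e-06 and 4.3e-05). Their summed TPM was 26.7 to 37.0 in controls and 10.6 to 13.9 after it. Ibsp, a bone gene, had 0 counts in the controls, and Acan and Col2a1 of cartilage averaged 0.0157 and 0.191 CPM in controls and 0.418 and 0.128 CPM after L-733,060. Leukocyte markers summed to 329.6 to 356 TPM in controls and 823 to 1664 after L-733,060, and 7 of 8 tested rose. Itgam, which did not pass (edgeR adjusted p = 0.991), made up most of the control sum. It averaged 248 TPM in controls and 251 TPM after L-733,060. Conjunctival markers summed to 12892 to 14816 TPM and 29710 to 32421 TPM, and corneal epithelial ones to 60209.9 to 78315 TPM and 38002 to 49465 TPM. Of the 10 corneal epithelial markers 6 fell and 2 rose. Krt12 fell from a mean of 21172 to 1775 TPM, and Krt14 rose from 2018 to 18835 TPM. Corneal endothelial markers summed to 195 to 232 TPM in controls and 93.7 to 113 TPM after L-733,060, and 2 of 5 fell, Slc4a11 by 2.09 and Col8a2 by 1.36 on the log2 scale (edgeR adjusted p = 0.000128 and 6.6e-05). Schwann cell markers summed to 91.4 to 103 TPM and 59.5 to 76.0 TPM, and 3 of 4 tested fell, or 1 without L-733,060 1. Of 11 vascular and lymphatic endothelial markers 4 rose and 2 fell, with 0 lower without control 3 or without L-733,060 2. Melanocyte markers, 2 of 4 tested lower, and skeletal muscle markers summed to at most 14.9 and 6.01 TPM in any sample. The part of these shifts in the proteoglycan levels was not tested.

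Genes outside the family followed the most abundant members closely. Of 14001 protein-coding candidates, Opcml, Gsg1l and Dpep1 came nearest to Dcn over the 6 samples, with root mean square distances of 0.116, 0.142 and 0.143 on the log2 scale. Bmp3, a bone morphogenetic protein gene, with 0.138, Pnck with 0.174 and Bdh2 with 0.178 came nearest to Lum. Dpep1, a membrane dipeptidase, had 13.1, 15.8 and 17.8 CPM in controls and 2.79, 3.53 and 3.66 CPM after L-733,060. Opcml, at 0.241 to 0.357 CPM after L-733,060, and Pnck, at 0.289 to 0.670 CPM, rested on few reads there. As nearness in pattern chose these genes from so many, their closeness is no finding, and no test of their change is given.

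The antagonist's target was scarcely expressed. Tacr1, the NK1 receptor gene, measured 2.55 ± 0.778 CPM in controls and 1.91 ± 0.609 CPM after L-733,060 (SD, n = 3 each), with a log2 fold change of -0.43 (edgeR adjusted p = 0.323).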

How the data were processed

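Poly(A) RNA of mouse limbus was sequenced in 6 samples. The authors deposited a read count and a TPM value per gene and sample. Per the submitters' processing notes, bcl2fastq, HISAT2 2.1.0, HTSeq 0.11.2 and the mm10 genome were used, while the sources used here give no settings, strand mode or annotation release. The deposited TPM equals the count over the deposited gene length, rescaled per sample. Total counts were 18708288 to 23541791 per sample, at which 3 counts correspond to 0.128 to 0.161 CPM.

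Counts were analysed in R 4.3.3 with edgeR 4.0.16: filterByExpr (minimum count 10, minimum total 15), TMM scaling and a quasi-likelihood F test of L-733,060 against control, two-sided, with Benjamini-Hochberg adjustment over 15712 genes (23377 removed) and a threshold of 0.05. Adjusted p-values are from this test unless another is named. SEs belong to fitted log2 values. The procedure was tested on simulated data. Alternatives used DESeq2 1.42.0, limma 3.58.1 on log2(TPM + 1) or log2(TPM + 0.1), other scalings, no filter, single samples left out and the replicate number as a block.

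All members were named. Of each list, up to 4 genes that passed (smallest p) and 2 that did not (highest CPM) could be named, and also the genomic neighbours, and the 3 genes nearest in pattern to Dcn and to Lum. Genes beyond this rule were chosen after their values were seen. The members and lists were chosen with earlier results of these data known. Promoter windows come from RefSeq (GRCm38.p6) and neighbours from GENCODE.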

Additional observations from a re-analysis of the deposited data

How the results depend on the processing

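The 9 tested proteoglycan genes kept their direction and their call in each of the 13 alternatives: other scalings, DESeq2, no low-count filter, limma on log2 TPM, each sample left out and the replicate block. Over all genes, leaving out single samples gave 2677 to 3722 higher and 2354 to 3788 lower genes, and the other alternatives 3331 to 3641 and 2681 to 3562. Of 1222 values of 94 named genes under alternatives, 1189 kept direction and call, 14 lost the call, 19 gained it and 0 reversed; the cause was not tested. Groups share replicate numbers. The correlations of same-numbered samples were -0.022, 0.273 and 0.133, and those of differently numbered samples ran from -0.296 to 0.163. So few values cannot settle whether the numbers mark pairs, and the main test left them unpaired. With the replicate block 3609 genes were higher and 3462 lower, with 2 and 7 of the proteoglycans. Among marker lists, the lower corneal epithelial genes were 6 with all samples and 3 without L-733,060 1. At 3 samples per group Epyc was below what these depths can resolve.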

Other observations

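Several matrix proteases rose, while the inhibitors of the TIMP family went in different directions. Of 18 proteases, protease enhancers and inhibitors that act on these proteoglycans or their collagens, 17 were tested, 12 rose and 2 fell. Those that fell were Timp3 and the enhancer gene Pcolce2 (log2 fold change -2.28, edgeR adjusted p = 8.78e-05). The metalloproteinase genes Mmp9 and Mmp13 rose by a log2 fold change of 6.32 and 5.87, and the inhibitor gene Timp1 by 4.37 (edgeR adjusted p = 1.99e-07, 1.49e-07 and 2.48e-07). Mmp9 had 8 counts and Mmp13 41 in all controls together, so the size of their rise rests on few control reads. Mmp9 passed the count filter through the treated samples. Timp3 had the highest mean CPM of the listed TIMP genes in controls, though in TPM Timp2 was higher (73.3 against 66.5). Timp3 fell from 149 ± 19.7 to 63.2 ± 2.83 CPM (SD, n = 3 each), a log2 fold change of -1.24 (edgeR adjusted p = 1.55e-05). Timp2 had a log2 fold change of 0.08 (edgeR adjusted p = 0.644). Among 20 binding partners and receptors, 6 rose and 5 fell. Tgfbr3, the TGF-β co-receptor, fell by 1.67 on the log2 scale and Tgfbr2 rose by 1.17 (edgeR adjusted p = 1.3e-06 and 2.38e-05). Of 10 genes of fibroblast growth and the TGF-β response, 5 rose and 3 fell. Tnc rose by 4.21 and Lox by 2.83 on the log2 scale (edgeR adjusted p = 8.15e-08 and 1.3e-06), while Ccn2 had 0.07 (adjusted p = 0.778). Without control 3, L-733,060 1 or L-733,060 2, only 1 of these 10 fell.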
